A study of Mus musculus with 24 samples.

Results

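The set of glucocorticoid-responsive genes described here consists of 10 genes, Tsc22d3, Fkbp5, Sgk1, Zbtb16, Plin4, Xdh, Hif3a, Pdk4, Cdkn1a and Ddit4. They were chosen by symbol, and all 10 matched an Ensembl identifier among the 36605 genes counted in mouse hippocampus. Each of the 10 had enough reads to be tested in every comparison. The name of the set is background knowledge and was not taken from a measurement, because the labels give no hormone level and no hormone treatment. The members and the further gene lists below were chosen with earlier results of these data known. The authors report Plin4 and Xdh as higher in Egr1fNesCre- than in Egr1wtNesCre- females. Shares over all genes in the main fits are therefore printed as a description beside the members and lists, and are not independent support.

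RNA was sequenced from the hippocampi of 24 adult mice, whose age the labels do not state, with 12 females and 12 males in 8 groups of 3. Egr1wtNesCre- mice, labelled as complete wild type, carried neither engineered allele, and Egr1wtNesCre+ mice, the Cre control, carried only the Nestin-Cre transgene. Egr1fNesCre- mice, the Egr1cKO control, labelled FF (-), carried the floxed Egr1 allele without Cre, and Egr1fNesCre+ mice, the Egr1cKO, carried both. The Cre transgene is driven by a Nestin promoter, which is active in neural precursors, so cells of other lineages in the same tissue, such as microglia and blood, lie outside its reach. The floxed strain was a C57BL/6N line, purchased under a tm1a strain name, whereas the Cre line was B6.Cg-Tg(Nes-cre)1Kln/J. The mouse numbers in the labels fall in separate ranges for floxed and Egr1wt mice, so floxP and series of mice cannot be told apart, while both Cre states occur within each series.

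Glucocorticoids enter cells and bind the glucocorticoid receptor, encoded by Nr3c1, which then moves to the nucleus and binds DNA at palindromic elements near the genes it controls. In the hippocampus the mineralocorticoid receptor, encoded by Nr3c2, binds the same hormone with higher affinity. The genes of the set are among those commonly used to read out this pathway. Several of them also respond to other inputs: Cdkn1a is a classical p53 target, Ddit4 is induced by hypoxia and energy stress, and Pdk4 by fasting.

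A glucocorticoid response element has the consensus of a pair of AGAACA sites facing each other across 3 bases. The strict form, AGAACA followed by any 3 bases and TGTTCT, reads the same on both strands and was searched in 16 RefSeq promoter windows of GRCm38.p6 that belong to 8 of the 10 genes, each spanning 250 bases before and 50 after a transcription start. A single window, of Sgk1, held it. Among all 32851 windows of that length, 3 held this form, which is 0.00913%. A looser form, GNACA followed by any 3 bases and TGTNC, which every strict match also meets, occurred in 156 windows or 0.475%, and among the 16 in the same Sgk1 window alone. A lone AGAACA on either strand, which the strict form also contains, is common, at 19% of all windows, and was found in 4 of the 16, belonging to Sgk1 and Tsc22d3. The stretch around the element is shown because Sgk1 is the gene whose level followed that of Tsc22d3 most closely across mice within the set. It lies on the plus strand at chr10:21993641-21993775, outside every GENCODE exon, and capitals mark the element, which starts 189 bases before that start site.
Sgk1 promoter stretch: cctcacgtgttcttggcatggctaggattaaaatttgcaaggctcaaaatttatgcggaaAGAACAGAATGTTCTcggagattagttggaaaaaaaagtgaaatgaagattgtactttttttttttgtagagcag
A match is a description of the sequence and not a mapped binding site.

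Total counts per mouse ran from 18025168 to 34955004, and levels are given as CPM, in which counts are scaled to library size with TMM factors. Egr1 itself checked the knockout: its level was between 4.85 and 10.2 CPM in the 6 Egr1fNesCre+ mice and between 47.6 and 149 CPM in the other 18. It does not tell the genotypes of those 18 mice apart. The cell type label reads endocrine, but the summed level of 5 pituitary hormone and cell markers was at most 3.84 CPM in any mouse, against at least 1912 CPM for 6 markers of excitatory neurons. In 5 mice the summed level of 7 choroid plexus markers was between 325 and 2047 CPM, against at most 79.8 CPM in the other 19. These are Egr1fNesCre- males 2 and 3, Egr1fNesCre+ male 2, Egr1wtNesCre+ female 1 and Egr1wtNesCre+ male 3. Values without them are given beside most results below that they enter, for the genes on which each turns. Because the tissue is a mixture of cells, more cells of a type and more RNA per cell cannot be told apart.

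The main question put to these genes was how they differ between floxed and Egr1wt mice in each sex, with 6 mice on each side and both Cre states on both sides, so that 3 of the 6 floxed mice of each sex are Egr1cKO. In females, log2FC was above 0 for all 10 genes, as for 47.8% of the 19742 genes tested, with a median of 0.57 against -0.01 over all of them. By edgeR's quasi-likelihood test, with calls made from a 1.2-fold change upward and a Benjamini-Hochberg adjusted p up to 0.05 over all genes, 1 of the 10 was called, Xdh, where 0.0253% of all genes were called. A further 8 of the 10 reached an unadjusted p under 0.05, which 2.94% of all genes did on the higher side. In males, 4 of the 10 were above 0 and 6 below, the median log2FC was -0.10, and none was called or reached an unadjusted p under 0.05. In that comparison 0.00507% of all genes were called and 3.25% reached that unadjusted p, and DESeq2 called none of the 10 either. The floxed males include Egr1fNesCre- males 2 and 3 and Egr1fNesCre+ male 2, which are choroid-rich. The single-gene values in floxed males are not given without them.

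**Figure D1:**
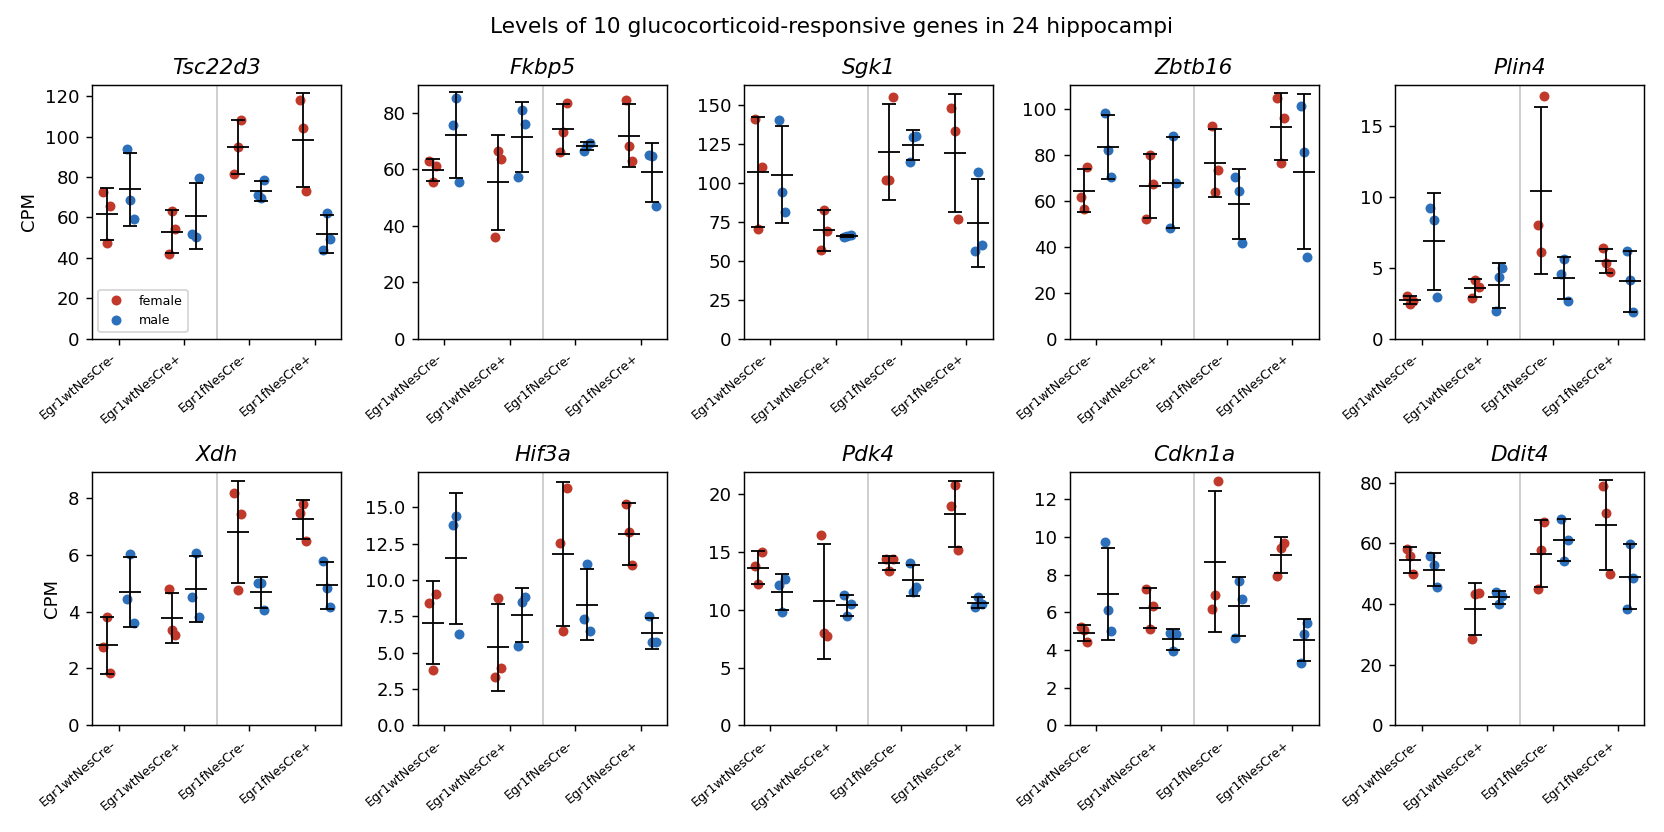
Level of each gene in CPM, with 1 point per mouse in the 4 genotypes (females red, males blue), the mean as a horizontal dash and the SD of 3 mice as the bar; a grey line separates Egr1wt from floxed mice. Tsc22d3 spans 72.9 to 118 CPM in floxed females and 41.8 to 72.6 CPM in Egr1wt females, and Plin4 has its highest value, 17.1 CPM, in an Egr1fNesCre- female.

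Tsc22d3 (chrX:140539528-140600659, minus strand) encodes GILZ, a leucine zipper protein that dampens inflammatory transcription. Its level was 72.6, 47.4 and 65.4 CPM in Egr1wtNesCre- females and 41.8, 63.2 and 54.1 CPM in Egr1wtNesCre+ females. Floxed females had 81.3, 95.0 and 108 CPM without Cre and 118, 104 and 72.9 CPM with Cre. Every floxed female was thus above every Egr1wt female, which 0.137% of all genes showed in that direction, although the lowest floxed and highest Egr1wt mice lay next to each other. The means were 96.6 ± 17.1 and 57.4 ± 11.7 CPM (SD, n = 6), and the log2FC was 0.75 (SE 0.147), with an adjusted p of 0.068 that missed the threshold. Without the 5 choroid-rich mice these were 0.68 and 0.182. In males the order was not the same: Tsc22d3 was at 93.8, 68.6 and 59.2 CPM in Egr1wtNesCre-, 51.9, 50.4 and 79.5 CPM in Egr1wtNesCre+, 70.9, 69.6 and 78.6 CPM in Egr1fNesCre- and 43.7, 62.3 and 49.2 CPM in Egr1fNesCre+ mice. Floxed and Egr1wt males overlapped, and the log2FC was -0.12 (SE 0.147, adjusted p = 1).

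Fkbp5 (chr17:28399094-28517527, minus strand) encodes a co-chaperone that lowers the affinity of the glucocorticoid receptor for its hormone and so closes a feedback loop. It was the steadiest gene of the set, with a coefficient of variation of 17.5% over the 24 mice. In females its lowest, median and highest levels were 36.0, 61.9 and 66.3 CPM in Egr1wt mice and 63.0, 70.6 and 84.3 CPM in floxed mice. The ranges overlapped, and the log2FC of 0.35 (SE 0.132) had an adjusted p of 0.607. It was 0.23 without Egr1wtNesCre+ female 1, the choroid-rich mouse, which had the lowest level. Males had medians of 75.7 CPM in Egr1wt and 65.7 CPM in floxed mice, with a log2FC of -0.18 (SE 0.132, adjusted p = 1).

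The transcriptional regulators Zbtb16 and Hif3a differed in how far they moved. Zbtb16 (chr9:48654297-48836222, minus strand) encodes the zinc finger repressor PLZF. Its lowest, median and highest levels in females were 51.9, 64.4 and 79.9 CPM in Egr1wt and 63.6, 84.4 and 105 CPM in floxed mice, with a log2FC of 0.36 (SE 0.192, adjusted p = 0.731). It was the only gene of the set whose unadjusted p in females, 0.071, was above 0.05. Hif3a (chr7:17031507-17062427, minus strand) encodes a hypoxia-inducible factor subunit, some isoforms of which restrain the other family members. Its levels in females were 3.36, 6.17 and 9.01 CPM in Egr1wt and 6.48, 12.9 and 16.3 CPM in floxed mice, so 1 floxed female, Egr1fNesCre- 2, lay inside the Egr1wt range. The log2FC was 1.02 (SE 0.264), with an adjusted p of 0.433. In males the median of Hif3a was 8.67 CPM in Egr1wt and 6.92 CPM in floxed mice, a log2FC of -0.37 (SE 0.262, adjusted p = 1).

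Sgk1 (chr10:21882184-21999903, plus strand) encodes a kinase that promotes sodium channel and transporter activity, and it carries the response element printed above. In Egr1wtNesCre- females it was at 141, 70.5 and 110.4 CPM and in Egr1wtNesCre+ females at 56.9, 82.9 and 69.1 CPM. Floxed females had 102, 102 and 155 CPM without Cre and 149, 134 and 76.6 CPM with Cre. The ranges overlapped widely, and the log2FC in females was 0.47 (SE 0.186, adjusted p = 0.607). In males, Sgk1 was almost the same in all 3 Egr1wtNesCre+ mice, at 65.1, 65.8 and 66.6 CPM, and at 140.3, 94.5 and 81.3 CPM in Egr1wtNesCre- mice. Egr1fNesCre- males had 114, 129.8 and 130.3 CPM and Egr1fNesCre+ males 56.3, 107 and 59.9 CPM. Sgk1 was lower in Cre carriers than in mice without Cre of the same sex in 3 of the 4 pairs of group means, and all but equal in floxed females.

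Xdh, Plin4 and Pdk4 act in metabolism. Xdh (chr17:73883895-73950196, minus strand) encodes xanthine dehydrogenase, which makes uric acid in purine breakdown and is found in capillary endothelium. It was at 2.76, 3.83 and 1.84 CPM in Egr1wtNesCre- females and at 4.79, 3.37 and 3.18 CPM in Egr1wtNesCre+ females. It was at 8.17, 4.77 and 7.45 CPM in Egr1fNesCre- females and at 7.46, 7.80 and 6.48 CPM in Egr1fNesCre+ females. Apart from Egr1fNesCre- female 2 and Egr1wtNesCre+ female 1, which were nearly level, all floxed females were above all Egr1wt females. Xdh rose in floxed females, from 3.30 ± 0.994 to 7.02 ± 1.24 CPM (SD, n = 6), with a log2FC of 1.10 (SE 0.187, adjusted p = 0.0227 by edgeR). The call depends on single mice: without any 1 of Egr1fNesCre- females 1 and 3, Egr1fNesCre+ females 1 and 2, Egr1wtNesCre- females 1 and 3, or Egr1wtNesCre+ females 2 and 3, the adjusted p was between 0.0588 and 0.0938, while the log2FC stayed between 0.99 and 1.11. Without the 5 choroid-rich mice Xdh had a log2FC of 1.21 (SE 0.203, adjusted p = 0.0442). In males Xdh did not separate, at 3.59 to 6.08 CPM in Egr1wt and 4.04 to 5.78 CPM in floxed mice (log2FC 0.02, SE 0.185, adjusted p = 1).

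Because Xdh marks endothelium, the summed level of 6 endothelial markers is given beside it. Its lowest, median and highest values were 95.9, 138 and 211 CPM in Egr1wt females and 142, 180 and 193 CPM in floxed females. The ranges overlapped, and the part of endothelial content in the Xdh result was not tested. In males the medians were 166 CPM in Egr1wt and 181 CPM in floxed mice.

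Plin4 (chr17:56100591-56109803, minus strand) encodes a lipid droplet coat protein. The non-stranded libraries cannot separate its reads from those of Hdgfl2 on the opposite strand over 17 of its 5777 exonic bases. Plin4 varied most of the set, with a coefficient of variation of 63.3%. Egr1wtNesCre- females had 3.03, 2.45 and 2.66 CPM, Egr1wtNesCre+ females 2.88, 4.16 and 3.64 CPM, Egr1fNesCre- females 8.01, 6.14 and 17.1 CPM, and Egr1fNesCre+ females 6.36, 5.33 and 4.70 CPM. Together with Tsc22d3, Plin4 was 1 of 2 genes of the set for which floxed and Egr1wt females did not overlap. Its log2FC in females was 1.28 (SE 0.308) but its adjusted p was 0.342, and in males, where Egr1wt mice reached 9.25 CPM, the log2FC was -0.30 (SE 0.305, adjusted p = 1).

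Pdk4 (chr6:5483351-5496309, minus strand) encodes a kinase that switches off pyruvate dehydrogenase and spares glucose. Its lowest, median and highest levels in females were 7.73, 13.0 and 16.4 CPM in Egr1wt and 13.3, 14.8 and 20.8 CPM in floxed mice, a log2FC of 0.40 (SE 0.141, adjusted p = 0.577). All 3 Egr1fNesCre+ females, at 18.9, 20.8 and 15.2 CPM, were above the Egr1fNesCre- females, at 14.4, 13.3 and 14.3 CPM. The high Egr1wt value was that of the choroid-rich Egr1wtNesCre+ female 1, whereas the other 2 mice of that group were at 7.95 and 7.73 CPM. Without the 5 choroid-rich mice Pdk4 was called in floxed females, with a log2FC of 0.63 (SE 0.108, adjusted p = 0.0444).

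Cdkn1a and Ddit4 restrain growth. Cdkn1a (chr17:29090976-29100727, plus strand) encodes p21, an inhibitor of cyclin-dependent kinases, and shares 273 of its 3553 exonic bases with a transcribed region on the opposite strand, AC167363.2. Its lowest, median and highest levels in females were 4.42, 5.17 and 7.24 CPM in Egr1wt and 6.17, 8.68 and 13.0 CPM in floxed mice, with a log2FC of 0.67 (SE 0.190, adjusted p = 0.474). Ddit4 (chr10:59949669-59951834, minus strand) encodes REDD1, an inhibitor of mTORC1 signaling. Its levels in females were 28.6, 46.6 and 58.0 CPM in Egr1wt and 45.1, 62.4 and 78.7 CPM in floxed mice, with a log2FC of 0.42 (SE 0.125, adjusted p = 0.498). Both genes overlapped between floxed and Egr1wt females. In males Ddit4 had the largest positive log2FC of the set, 0.23 (SE 0.125, adjusted p = 1), and Cdkn1a was at -0.08 (SE 0.192, adjusted p = 1).

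**Figure D2:**
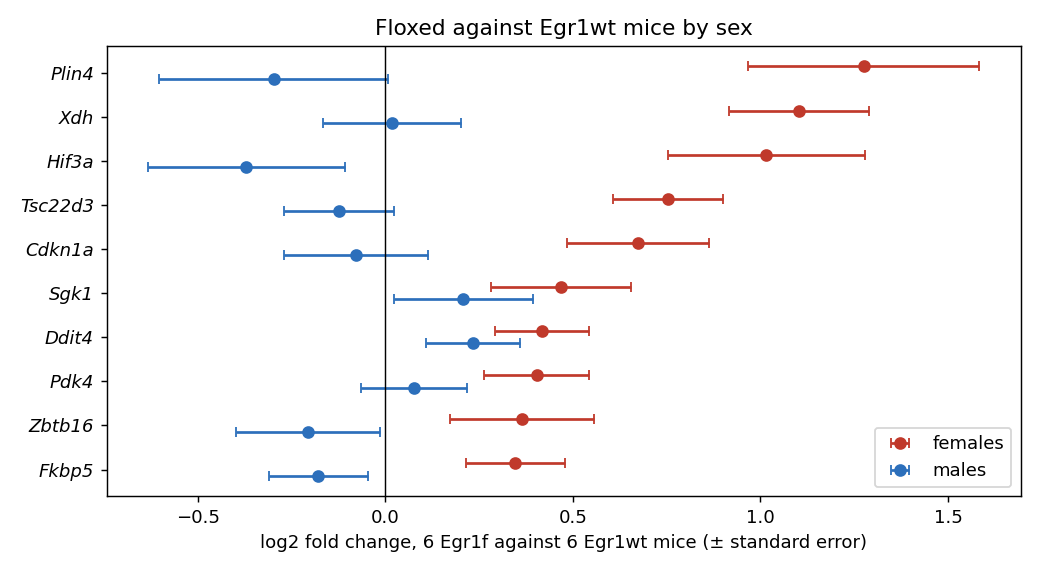
log2FC of 6 floxed against 6 Egr1wt mice in females (red) and males (blue), with the standard error as the bar, genes ordered by the value in females. All 10 values in females are above 0, from 0.35 for Fkbp5 to 1.28 for Plin4, while those in males run from -0.37 for Hif3a to 0.23 for Ddit4.

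The difference between the sexes was itself tested, as the floxed shift in females minus that in males. It was above 0 for all 10 genes, with a median of 0.66. No member was called by edgeR, where 0% of all 19742 genes were, and DESeq2 called none. An unadjusted p under 0.05 was reached by 7 of the 10, against 1.61% of all genes on that side. The largest values were 1.57 for Plin4 (SE 0.432, adjusted p = 0.927), 1.39 for Hif3a (SE 0.372, adjusted p = 0.881), 1.09 for Xdh (SE 0.262, adjusted p = 0.786) and 0.88 for Tsc22d3 (SE 0.207, adjusted p = 0.786). Without the 5 choroid-rich mice the values were 1.33 for Plin4, 1.25 for Hif3a, 1.21 for Xdh and 0.78 for Tsc22d3, each with an adjusted p of 1. After adjustment over all genes tested, the shift was thus not shown to differ between the sexes for any of the 10.

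The shift of the set in floxed females was spread over its genes. On log2(CPM + 1), the mean difference of the 10 genes between floxed and Egr1wt females was 0.617, and Plin4 gave 16.3% of the sum, Hif3a 15.3%, Xdh 14.9% and Tsc22d3 12.1%. Fkbp5 and Zbtb16 gave least, with 5.80% and 5.82%. Leaving out any 1 gene left the mean of the other 9 between 0.574 and 0.646. In males the mean difference was -0.0596, with 4 genes above 0 and 6 below. This male mean ran from -0.170 to 0.0252 over 15 alternatives, which include leaving out the choroid-rich mice.

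Seen mouse by mouse, the set was high in floxed females and low in Egr1wt females. The mean deviation of the 10 genes from their 24-mouse means, on the same log2 scale, was 0.110 to 0.653 in the 6 floxed females and -0.448 to -0.0477 in the 6 Egr1wt females. Egr1fNesCre- female 3 and Egr1fNesCre+ females 1 and 2 had all 10 genes above their means. Males were mixed, from -0.373 to 0.390 in Egr1wt and from -0.455 to 0.142 in floxed mice. Egr1wtNesCre- male 1 had 8 genes above their means, whereas Egr1fNesCre+ male 3 and Egr1wtNesCre+ male 1 had all 10 below.

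The pairs of single genotypes, with 3 mice against 3, separate the Cre states. Egr1fNesCre+ females, the knockouts, were compared with Egr1wtNesCre+ females, a pair that differs in the floxed allele and also in the loss of Egr1 (log2FC -3.25, SE 0.298, adjusted p = 0.0085), which cannot be told apart here. All 10 genes were above 0, with a median log2FC of 0.77, and Tsc22d3 was called, where 1.81% of all 17141 genes were called. An unadjusted p under 0.05 was reached by 9 of the 10, against 9.99% of all genes on that side. Tsc22d3 rose from 41.8, 63.2 and 54.1 CPM to 118, 104 and 72.9 CPM, with a log2FC of 0.89 (SE 0.182, adjusted p = 0.0413). The groups did not overlap for 6 of the 10 genes, namely Tsc22d3, Plin4, Xdh, Hif3a, Cdkn1a and Ddit4, against 13.2% of all genes on that side. Hif3a had the largest log2FC, 1.30 (SE 0.317, adjusted p = 0.0678), from 3.36, 8.79 and 3.94 CPM to 15.3, 13.3 and 11.0 CPM. Xdh was at 0.93 (adjusted p = 0.0676), Ddit4 at 0.78 (adjusted p = 0.0662) and Sgk1 at 0.78 (adjusted p = 0.0991).

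That call turned on single libraries. The adjusted p of Tsc22d3 was 0.166 without Egr1fNesCre+ female 1, 0.189 without female 2, 0.0639 without female 3 and 0.113 without Egr1wtNesCre+ female 3. Without Egr1wtNesCre+ female 1, which is the choroid-rich mouse of the pair, it was 0.00993 and 5 of the 10 genes were called, Tsc22d3, Xdh, Hif3a, Pdk4 and Ddit4. Without Egr1wtNesCre+ female 2, Tsc22d3 and Hif3a were called. With the replicate number as a block the adjusted p of Tsc22d3 was 0.115, and in a fit shared by all 24 mice 0.0804. None of the 10 was called in either, whereas DESeq2 called 6. For these refits the share of all genes called is not given, so their counts do not set the members apart.

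In females without Cre, Egr1fNesCre- against Egr1wtNesCre-, where Egr1 is intact, all 10 genes were again above 0, with a median log2FC of 0.47, but none was called by edgeR, where 0.0113% of all 17727 genes were. An unadjusted p under 0.05 was reached by 6, against 4.8% of all genes on that side. Plin4 had the largest log2FC, 1.93 (SE 0.330, adjusted p = 0.233), followed by Xdh at 1.27 (SE 0.288, adjusted p = 0.412), and 5 genes did not overlap, which 6.88% of all genes showed. DESeq2 called 3 of the 10, Plin4, Tsc22d3 and Xdh, and without Egr1fNesCre- female 1 edgeR called 4. Shares of all genes called in these refits are not given. Sgk1, Pdk4 and Ddit4 were close to level, at 0.16, 0.04 and 0.05. Side by side with the Cre carriers, whose mice are others, Sgk1, Ddit4 and Pdk4 were thus lower here and Plin4 higher, but the interaction of floxP and Nestin-Cre over both sexes called none of the 10, where 0.00507% of all genes were called. None reached an unadjusted p under 0.05 in that interaction, against 18.4% of all genes, and DESeq2 called none. Because it averages females and males, it does not decide on the difference between these female pairs. An interaction in females alone was not tested.

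The same pairs in males gave no call. In Egr1fNesCre- against Egr1wtNesCre- males, 3 of the 10 genes were above 0 and none was called, where 0% of all genes were. Zbtb16 was lower, at 70.1, 64.0 and 41.6 against 97.9, 81.9 and 70.1 CPM (log2FC -0.51, SE 0.176, adjusted p = 0.996). The groups met at 70.1 CPM and did not overlap only by a margin under the printed digits, where 3.5% of all genes did not overlap on that side. Of the Egr1fNesCre- males 2 are choroid-rich, and without them Zbtb16 was at -0.25 (SE 0.169, adjusted p = 1) and Ddit4 went from 0.24 to 0.41 (SE 0.137, adjusted p = 1). Without Egr1fNesCre- male 3 alone Zbtb16 was at -0.31. Zbtb16 and Ddit4 were the 2 genes of the set at an unadjusted p under 0.05, against 2.74% of all genes. In Egr1fNesCre+ against Egr1wtNesCre+ males, 6 of the 10 were above 0, the median was 0.04, and none was called or reached an unadjusted p under 0.05, where 0.00575% and 2.59% of all genes did. DESeq2 called none of the 10 in either pair. In the pair of male Cre carriers none of the 10 was called without the choroid-rich mice either.

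Nestin-Cre was compared within each series of mice and so is free of the split in mouse numbers between floxed and Egr1wt mice. Within a series, mice of the same Cre state tend to have neighboring numbers. Differences that follow those numbers were therefore not separated from Cre. In the factorial model over 24 mice, 8 of the 10 genes were below 0 in Cre carriers, and none was called by edgeR or DESeq2, where 0.0456% of all genes were called by edgeR. Sgk1 had a log2FC of -0.50 (SE 0.136), an unadjusted p of 0.000967 and an adjusted p of 0.562, and Ddit4 a log2FC of -0.22 (SE 0.094, adjusted p = 0.997). With the choroid-rich mice left out these were -0.45 for Sgk1 and -0.18 for Ddit4, each with an adjusted p of 1. Sgk1 and Ddit4 were the 2 genes at an unadjusted p under 0.05, against 2.01% of all genes on that side.

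By pair, Egr1wtNesCre+ against Egr1wtNesCre- mice gave a log2FC of Sgk1 of -0.62 (SE 0.219, adjusted p = 0.612) in females and -0.69 (SE 0.172, adjusted p = 1) in males, in the latter without overlap, which 2.84% of all genes showed on that side. Leaving out Egr1wtNesCre- female 1 brought Sgk1 to -0.38 in females, and leaving out Egr1wtNesCre- male 1 brought it to -0.42 in males. Without the choroid-rich Egr1wtNesCre+ mouse of each pair it was -0.50 and -0.68. Ddit4 did not overlap in either sex, against 8.02% of all genes in females, with 28.6, 43.2 and 43.5 against 58.0, 55.9 and 49.8 CPM in females and 43.9, 39.9 and 42.6 against 55.9, 52.7 and 45.4 CPM in males. Its log2FC was -0.50 (SE 0.150, adjusted p = 0.587) and -0.29 (SE 0.114, adjusted p = 1), and -0.34 and -0.29 without the choroid-rich mouse. No gene at all was called in either pair, 0% of those tested, and among the 10 an unadjusted p under 0.05 on the lower side was reached by 2 in females and 3 in males, against 4.21% and 0.964% of all genes.

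Among floxed mice, Cre carriers lack Egr1 in the targeted cells, so this pair isolates the deletion together with the transgene. Egr1fNesCre+ against Egr1fNesCre- females had 7 of 10 genes above 0 and a median log2FC of 0.08, and none was called, where 0.288% of all genes were. Plin4 had a log2FC of -0.92 (SE 0.299, adjusted p = 0.131) and Pdk4 one of 0.38 (SE 0.139, adjusted p = 0.178), the 2 at an unadjusted p under 0.05, against 18.4% of all genes. Without Egr1fNesCre- female 3, the mouse at 17.1 CPM, Plin4 was at -0.38. Pdk4 did not overlap, as 11.9% of all genes on that side. DESeq2 called 1 of the 10, and edgeR called 2 without Egr1fNesCre- female 1, with no share of all genes given for these refits. In males 8 of the 10 were below 0, with a median of -0.27. None was called by edgeR or DESeq2, where 0.00569% of all genes were called by edgeR, and 2 reached an unadjusted p under 0.05 on the lower side, against 1.37% of all genes.

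Tsc22d3 in those males was at 43.7, 62.3 and 49.2 CPM with Cre and 70.9, 69.6 and 78.6 CPM without (log2FC -0.49, SE 0.135, adjusted p = 0.954). Sgk1 was at 56.3, 107 and 59.9 against 114, 129.8 and 130.3 CPM (log2FC -0.74, SE 0.214, adjusted p = 0.954). Fkbp5 and Pdk4 did not overlap either, so that 4 of the 10 genes were lower in every Egr1cKO male than in every Egr1cKO control male, against 5.05% of all genes on that side. Of these 6 males, 3 are choroid-rich, 2 without Cre and 1 with Cre. Without them, when a lone mouse without Cre is assumed to vary like the others, Tsc22d3 was at -0.61 (SE 0.257, adjusted p = 1) and Sgk1 at -0.97 (SE 0.253, adjusted p = 0.405).

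Over both sexes and Cre states, the factorial model gave a log2FC above 0 in floxed mice for all 10 genes, from 0.08 for Zbtb16 to 0.56 for Xdh. None was called by edgeR or DESeq2, where 0.00507% of all genes were called by edgeR, and 5 reached an unadjusted p under 0.05, against 2.3% of all genes on that side. The log2FC of those 5 genes ran from 0.21 for Sgk1 to 0.72 for Xdh without the choroid-rich mice. Between females and males none was called by either tool, where 0.0658% of all genes were called by edgeR. Pdk4, with a log2FC of 0.31 (SE 0.109, adjusted p = 0.716), and Cdkn1a, with 0.35 (SE 0.166, adjusted p = 0.852), reached an unadjusted p under 0.05 as higher in females, against 2.88% of all genes on that side, and were at 0.21 and 0.33 without the choroid-rich mice.

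The remaining pathway genes were read from lists of the receptor machinery and of further target genes. Nr3c1, which encodes the glucocorticoid receptor, had group means between 79.9 and 106 CPM and a log2FC of -0.10 (SE 0.119, adjusted p = 0.906) in floxed females. Nr3c2, the mineralocorticoid receptor, had group means between 183 and 234 CPM and a log2FC of -0.06 (SE 0.146, adjusted p = 0.958). These pooled values average unlike pairs. Nr3c1 was at -0.40 (SE 0.144, adjusted p = 0.535) between females without Cre and at 0.19 (SE 0.127, adjusted p = 0.464) between Cre carriers, and its interaction over both sexes had an adjusted p of 0.223. Nr3c2 was at -0.35 (SE 0.115, adjusted p = 0.535) without overlap in the former pair and at 0.23 (SE 0.165, adjusted p = 0.52) in the latter. Of 15 genes for the receptors, their chaperones, cofactors and ligand supply, none was called in floxed females, and 2 had an unadjusted p under 0.05 on the higher side, against 2.94% of all genes. In the pair of female Cre carriers 2 of these 15 were called, against 1.81% of all genes, the coactivator gene Ncoa1 at a log2FC of 0.56 (SE 0.074, adjusted p = 0.0118) and the corepressor gene Ncor1 at 0.33 (SE 0.069, adjusted p = 0.0462). Egr1wtNesCre+ females were low for both, at -0.32 and -0.23 against Egr1wtNesCre- females, and neither was called there. Egr1fNesCre+ females were also above Egr1fNesCre- females for both, at 0.49 (adjusted p = 0.0563) and 0.33 (adjusted p = 0.102), neither called. They did so without overlap, where 11.9% of all genes did not overlap on that side.

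Of 24 further target genes, 23 could be tested. In floxed females 21 of these 23 were above 0, with a median log2FC of 0.22, 11 had an unadjusted p under 0.05 on the higher side, against 2.94% of all genes, and none was called. In floxed males 12 were above 0, with a median of 0.00. In the pair of female Cre carriers 3 of 22 tested were called, against 1.81% of all genes, and all 3 were higher. They were the clock gene Per1 at a log2FC of 0.62 (SE 0.091, adjusted p = 0.0133), the insulin signaling adaptor Irs2 at 0.77 (SE 0.122, adjusted p = 0.0179) and the transcription factor Klf9 at 0.49 (SE 0.095, adjusted p = 0.0340). The Egr1wtNesCre+ females of that pair were low for all 3. Against Egr1wtNesCre- females they had log2FC of -0.57 for Per1, -0.34 for Irs2 and -0.24 for Klf9, none called. Between floxed and Egr1wt females without Cre, Per1 was at -0.19 and not called. Irs2 was also called between Egr1fNesCre+ and Egr1fNesCre- females, at 0.50 (SE 0.096, adjusted p = 0.0470). Per1 and Klf9 were at 0.25 and 0.31 in that pair, without overlap and not called, where 11.9% of all genes did not overlap on that side.

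Genes induced by neuronal activity, 7 in number, were read for comparison, since Egr1 belongs to that class. In floxed females 4 of these 7 were below 0 and none was called. Between Egr1fNesCre- and Egr1wtNesCre- females all 7 were below 0, and Npas4 was called lower, where 0.0113% of all genes were called. Its log2FC was -1.02 (SE 0.135, adjusted p = 0.0487). The direction was not the same in Cre carriers. Against Egr1fNesCre- females, all 7 were above 0 in Egr1fNesCre+ females, and against Egr1wtNesCre+ females 5 were above 0 and 2 below. None of the 7 was called in these 2 pairs, where 0.288% and 1.81% of all genes were. Of 7 clock output genes, 4 were above 0 in floxed females and none was called. The hour of tissue collection is not in the labels.

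Compared per length, the 10 genes span a wide range. RPKM, which is CPM divided by the exonic length in kilobases, was highest for Ddit4, at 29.9 ± 6.58 (SD, n = 24), followed by Sgk1 at 20.0 ± 6.57, Tsc22d3 at 16.3 ± 4.82 and Zbtb16 at 13.8 ± 3.50. Sgk1 and Tsc22d3, and Tsc22d3 and Zbtb16, differed by less than their SD, whereas Ddit4 lay above Sgk1 by more than either SD. Fkbp5 was at 7.01 ± 1.23 and Pdk4 at 3.62 ± 0.896, while Cdkn1a at 1.80 ± 0.635, Hif3a at 1.33 ± 0.563, Plin4 at 0.889 ± 0.563 and Xdh at 0.541 ± 0.180 were low. The genes with the largest log2FC in floxed females, Plin4, Xdh and Hif3a, are therefore the 3 with the lowest level.

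Co-variation was measured over the 24 mice on log2(CPM + 1) for all 45 pairs of the 10 genes. Pearson's r was above 0 in 44 pairs and had a median of 0.483, from -0.085 for Fkbp5 with Pdk4 to 0.827 for Tsc22d3 with Sgk1. With a permutation test over all 24 mice, made without regard to group, p-values were Benjamini-Hochberg adjusted over the 45 pairs. By Pearson's r 27 pairs passed, by Spearman's rho 21 and by both 19, all 19 positive. The same values were not computed for pairs of other genes. These counts therefore do not set the members apart from genes in general. Tsc22d3 passed both with 7 of its 9 partners and Sgk1 and Hif3a with 6 each, whereas Zbtb16, Xdh, Pdk4, Cdkn1a and Ddit4 passed both with 2 each.

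Mice of 8 groups enter these values, so differences between groups are part of them. On deviations from the 8 group means the median r was 0.224, with 33 of the 45 pairs above 0. The median was 0.309 within the 12 Egr1wt mice, with 34 pairs above 0, and 0.566 within the 12 floxed mice, with 44 above 0. Of the 19 pairs that passed both tests, 12 had r over 0.5 within both series. Those 19 were chosen on the same mice, so this is a description and not independent support. Without the 5 choroid-rich mice the median was 0.575.

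Tsc22d3 and Sgk1 were the closest pair, with r = 0.827 and rho = 0.794 (adjusted permutation p = 0.000225 and 0.0003). The correlation was 0.785 without the 2 mice farthest from the median of Tsc22d3, 0.755 within Egr1wt mice, 0.836 within floxed mice and 0.852 on deviations from group means. Sgk1 with Ddit4 had r = 0.815 and rho = 0.838 (adjusted permutation p = 0.000225 and 0.0003), and 0.782 without the 2 farthest mice. Within Egr1wt mice it had 0.745, within floxed mice 0.826, and 0.696 on deviations. Plin4 with Hif3a had r = 0.753 and rho = 0.789 (adjusted permutation p = 0.00027 and 0.0003), 0.724 without the 2 farthest mice, and 0.756 and 0.722 within the series.

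Fkbp5 with Pdk4 stood at the other end. It had r = -0.085 and rho = -0.113 (adjusted permutation p = 0.692 and 0.643), -0.600 within Egr1wt mice, 0.509 within floxed mice and 0.0436 without the 2 farthest mice. Tsc22d3 with Xdh, which were each called in 1 comparison of females, had r = 0.375 and rho = 0.353 (adjusted permutation p = 0.102 and 0.135), and -0.352 on deviations from group means. Their values in the series were -0.202 in Egr1wt and 0.551 in floxed mice, and 0.326 without the 2 farthest mice. Within females r was 0.584 and within males -0.334. The r on deviations was not tested, so co-variation of Tsc22d3 and Xdh within groups was not shown.

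**Figure D3:**
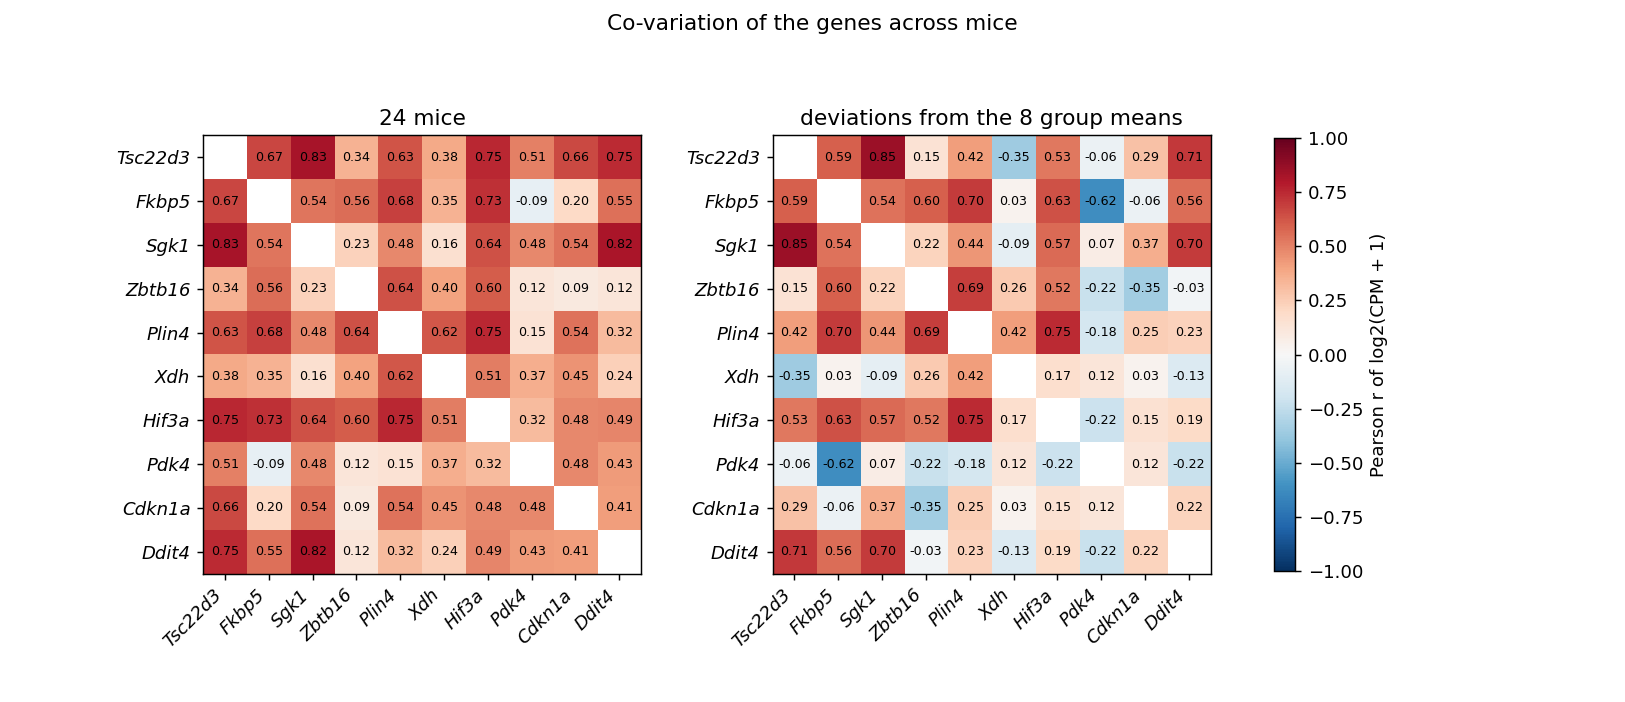
Pearson's r of log2(CPM + 1) for each pair of genes over 24 mice (left) and on deviations from the 8 group means (right), from blue at -1 to red at 1. The median falls from 0.483 to 0.224, the pair of Tsc22d3 and Sgk1 stays high at 0.827 and 0.852, and Fkbp5 with Pdk4 goes from -0.085 to -0.618.

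**Figure D4:**
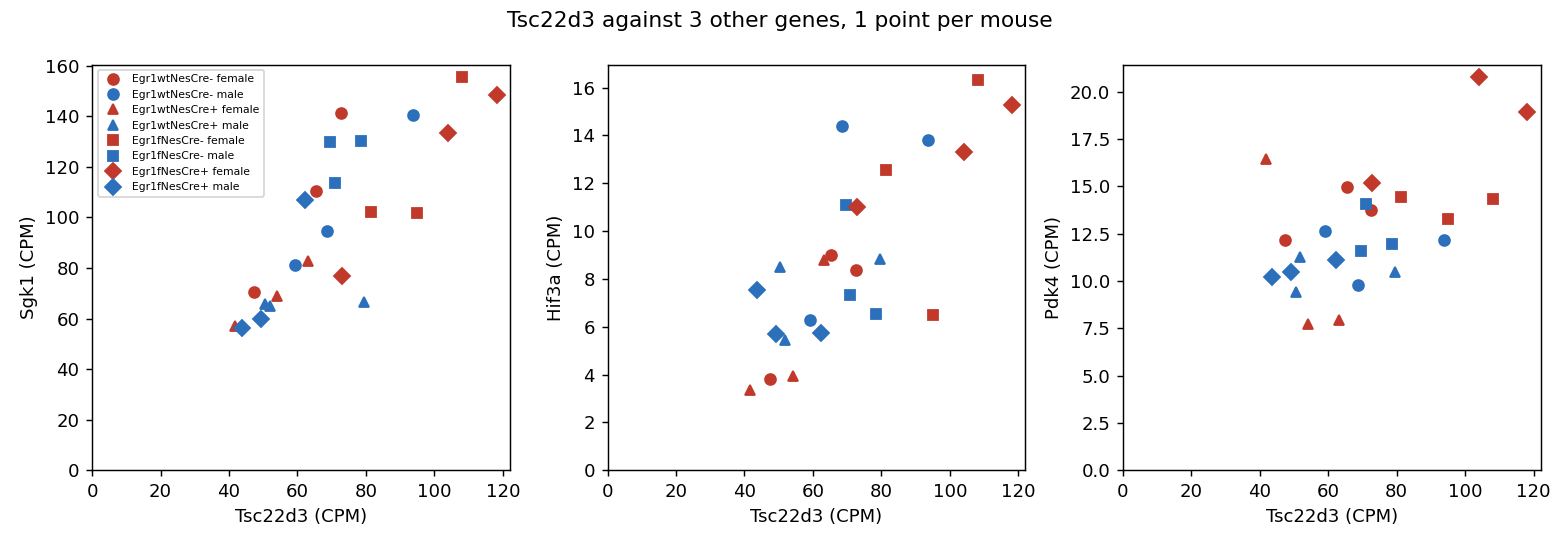
Level of Sgk1, Hif3a and Pdk4 against that of Tsc22d3 in CPM, with 1 point per mouse, females red and males blue, and a symbol for each genotype. Sgk1 and Hif3a follow Tsc22d3 with r of 0.827 and 0.753 on log2(CPM + 1), Pdk4 with 0.507.

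Among the other 19741 genes, those whose level was most like that of Tsc22d3 over the 24 mice, members of the set left out, were Gm19439 (r = 0.865), Arrdc2 (0.835), Ppp1r3g (0.835), Slc25a25 (0.826) and Atf3 (0.802). On deviations from group means the same genes had r of 0.769, 0.808, 0.781, 0.716 and 0.664. Gm19439 is a transcribed region of the TEC class, and Atf3 is low, with a mean of 1.18 CPM. Arrdc2 is also on the list of further target genes. In this ranking Sgk1 stood 4th, Hif3a 16th and Ddit4 19th, whereas Xdh stood 1659th and Zbtb16 2062nd.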

How the data were processed

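Hippocampal RNA of 24 mice was sequenced by the authors in paired-end mode from non-stranded libraries, and the submitters' processing notes name Trim Galore, FastQC, STAR 2.7.9 and GRCm38. The annotation used for counting is not given in the sources used here. The deposited table holds raw counts per gene and mouse, without normalization, and all of its columns were used. Symbols, positions and exonic lengths came from GENCODE M21 on GRCm38, and promoter windows from RefSeq GRCm38.p6.

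Counts were tested in R 4.3.3 with edgeR 4.0.16 (TMM, filterByExpr with a minimum count of 10, quasi-likelihood F test) and Benjamini-Hochberg adjustment over all genes tested. A call needed a change of 1.2-fold or more with an adjusted p no higher than 0.05, the limits the authors set with DESeq2, which was run here (1.42.0) as an alternative. Pairs used only their 6 mice, floxP by sex a model of 8 group means, and floxP, Nestin-Cre, their interaction and sex a factorial model. SE was derived from log2FC and the F statistic. Permutation tests were two-sided with 100000 draws, and 1e-05 is the smallest p they can give. Tests were checked on simulated data.

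The members and all lists were chosen with earlier results of these data known. Text names all members, Egr1, Nr3c1, Nr3c2, the 5 genes most like Tsc22d3 and pathway genes that were called. Replicates differed beyond counting noise (chi-square per degree of freedom 4.70 to 38.0). Whether they came from separate litters is not stated, so p-values measure the spread between these mice.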

Additional observations from a re-analysis of the deposited data

How the results depend on the processing

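Genes at an unadjusted p under 0.05 in a comparison were followed singly. Of 1080 such refits under an alternative, 998 kept their side of the threshold and their direction. A further 68 newly passed it, 14 no longer did and none changed sign. Most followed genes were not called in the main fit, so keeping their side mostly meant staying uncalled. Tsc22d3 in Egr1fNesCre+ against Egr1wtNesCre+ females lost its call in 6 of 13 refits, and Xdh in floxed females in 8 of 30. The genes were chosen by p in the same mice, so the kept direction is not independent support. Calls of the 10 genes under alternatives, here and above, are given without the share of all genes called in the same refit. They therefore do not set the members apart from a test that calls more genes in general. The numbers of the 10 genes called were affected most by omitting the filter on low counts, whose cause was not tested. It gave 9 in floxed females instead of 1, 8 in Egr1fNesCre+ against Egr1wtNesCre+ females instead of 1, and, instead of 0, 6 for floxP by sex, 5 in Egr1fNesCre- against Egr1wtNesCre- females, 4 for floxP, 2 each for Nestin-Cre, Egr1wtNesCre+ against Egr1wtNesCre- females and Egr1fNesCre+ against Egr1fNesCre- males, and 1 each for the interaction, for Egr1fNesCre- against Egr1wtNesCre- males, for Egr1wtNesCre+ against Egr1wtNesCre- males and for Egr1fNesCre+ against Egr1fNesCre- females. DESeq2 called 3 in floxed females (Plin4, Tsc22d3 and Xdh), 6 in Egr1fNesCre+ against Egr1wtNesCre+ females, 3 in Egr1fNesCre- against Egr1wtNesCre- females and 1 in Egr1fNesCre+ against Egr1fNesCre- females. Without the choroid-rich mice, an alternative chosen after seeing the data, 2 were called in floxed females (Pdk4 and Xdh) and 5 in Egr1fNesCre+ against Egr1wtNesCre+ females. A fit shared by 24 mice called 0 in that pair.

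Leaving out 1 mouse at a time gave 0 to 2 calls in floxed females, 0 to 5 in Egr1fNesCre+ against Egr1wtNesCre+ females, 0 to 4 in Egr1fNesCre- against Egr1wtNesCre- females and 0 to 2 in Egr1fNesCre+ against Egr1fNesCre- females. The adjusted p of Xdh in floxed females ran from 0.00892 to 0.0938 over the left-out mice, and that of Tsc22d3 from 0.0269 to 0.303. DESeq2's size factors and no FC minimum kept every number. Same-numbered mice did not deviate together (r from -0.247 to 0.227 over the pairs), so the numbers do not pair the mice. With the replicate number as a block, 0 genes were called in Egr1fNesCre+ against Egr1wtNesCre+ females, and no other number changed. Median r of the 45 pairs moved from 0.483 to 0.224 on deviations from group means.

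Groups of 3 limit the pairs. The series of mice cannot be told apart from the floxed allele.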
